A study of Mus musculus with 768 samples.

Results

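Non-clustered protocadherins are single-gene members of the cadherin superfamily, and 8 of them were followed here by name: Pcdh7, Pcdh8, Pcdh9, Pcdh10, Pcdh11x, Pcdh15, Pcdh17 and Pcdh19. They are 8 of the 24489 genes in the deposited count table, and all 8 have a row in it. Single nuclei of the striatum were sequenced from untreated C57BL/6 mice of 2 genotypes, Oprm1-Cre:H2BG and Slc32a1-Cre:H2BG, with 768 wells in equal numbers on 1 plate each. Every nucleus of both groups therefore comes from a mouse with H2BG and a Cre allele, and no mouse without Cre was measured. Oprm1-Cre served to bring in neurons of the patches (striosomes), Slc32a1-Cre to bring in GABAergic neurons. The sources used here do not name the animals or say how many were pooled, so each genotype is 1 sample.

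Non-clustered protocadherins are transmembrane adhesion proteins that bind mainly to the same protocadherin on a neighbouring membrane, and they act in the sorting of neurons, the growth of axons and the shaping of synapses. Of the 8 genes, Pcdh7, Pcdh9 and Pcdh11x belong to the delta-1 group, whose longer cytoplasmic tails carry a motif that binds protein phosphatase 1. Pcdh8, Pcdh10, Pcdh17 and Pcdh19 belong to the delta-2 group, and Pcdh10, Pcdh17 and Pcdh19 recruit the WAVE complex, a driver of actin branching. Pcdh15 is a divergent member best known from the tip link of sensory hair cells. In the striatum, Pcdh10 and Pcdh17 are known for their part in the wiring of striatal and corticostriatal circuits. Spiny projection neurons (SPNs), the main striatal neurons, fall into a direct-pathway type with the dopamine receptor Drd1 (D1) and an indirect-pathway type with Drd2 (D2). Both types occur in the patches and in the surrounding matrix.

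Of the 8 genes, 3 lie on mouse chromosome 14 (Pcdh8, Pcdh9 and Pcdh17) and 2 on the X chromosome (Pcdh11x and Pcdh19), by the GENCODE annotation of GRCm38, the assembly behind mm10. Their spans differ widely, from 4.54 kb for Pcdh8 to 877 kb for Pcdh9 and 1550 kb for Pcdh15. Pcdh11x overlaps H2afb3 on the opposite strand without a shared exon, and no other member overlaps a gene that is in the count table. Exons of Pcdh7, Pcdh8, Pcdh10 and Pcdh19 overlap exons of opposite-strand genes that have no row in it. The part of such genes in the counts was not tested. RefSeq promoters of GRCm38.p6 were matched for 7 of the 8 members by symbol, and Pcdh11x is named only. The 250 bases before the start are shown for 4 members, picked for how they differ in the data below. Pcdh8 and Pcdh15 were rare in D1-like and D2-like nuclei. They were frequent in 1 kind of interneuron-like nucleus, which rests on 8 nuclei of 1 plate sorted after values were seen. Pcdh15 reads also occurred in other kinds. Pcdh10 and Pcdh17 were frequent in D1-like nuclei, Pcdh17 mainly in those of Oprm1-Cre. Capitals mark letters that match the TATA box core TATAAA, the CCAAT box CCAAT, the GC box GGGCGG or the shorter cAMP response motif TGACG, on either strand.
Pcdh8 (chr14:79771313-79771562, minus strand): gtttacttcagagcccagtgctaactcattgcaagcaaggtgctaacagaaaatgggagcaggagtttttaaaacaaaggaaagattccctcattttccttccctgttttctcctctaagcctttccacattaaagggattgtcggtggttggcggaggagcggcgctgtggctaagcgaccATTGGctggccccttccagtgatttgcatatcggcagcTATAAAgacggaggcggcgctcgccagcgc
Pcdh15 (chr10:73821617-73821866, plus strand): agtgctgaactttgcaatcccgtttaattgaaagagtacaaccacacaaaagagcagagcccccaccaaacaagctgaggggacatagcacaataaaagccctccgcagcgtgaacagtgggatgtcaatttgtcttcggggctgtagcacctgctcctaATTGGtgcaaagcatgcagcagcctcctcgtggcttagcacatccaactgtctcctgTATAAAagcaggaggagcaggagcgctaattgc
Pcdh10 (chr3:45378148-45378397, plus strand): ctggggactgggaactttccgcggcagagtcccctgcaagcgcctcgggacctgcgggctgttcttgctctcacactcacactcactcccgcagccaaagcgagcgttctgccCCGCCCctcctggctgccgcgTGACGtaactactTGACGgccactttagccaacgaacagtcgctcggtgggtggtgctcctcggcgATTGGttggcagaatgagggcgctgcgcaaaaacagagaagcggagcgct
Pcdh17 (chr14:84443313-84443562, plus strand): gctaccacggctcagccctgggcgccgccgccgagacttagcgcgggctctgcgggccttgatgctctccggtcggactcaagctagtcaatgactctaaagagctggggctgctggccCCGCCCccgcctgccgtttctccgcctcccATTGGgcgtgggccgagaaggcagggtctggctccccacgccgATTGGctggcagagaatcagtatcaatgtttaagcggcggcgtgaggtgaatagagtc

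TATAAA occurred in 2 of the 7 matched members, Pcdh8 at 30 and Pcdh15 at 33 bases before the start, and in 12.4% of all 32851 RefSeq promoter windows of this length. CCAAT occurred in 6 of the 7, Pcdh7 being the exception, against 33.8% of all windows. GGGCGG occurred in 3 of the 7 (Pcdh10, Pcdh17 and Pcdh19) against 32.7%, and TGACG in 2 of the 7 (Pcdh9 and Pcdh10) against 17.8%. The full cAMP response element TGACGTCA, which contains TGACG, was in 0 of the 7 windows and in 1.55% of all windows. GC content ran from 50.4% in the Pcdh15 window to 69.2% in the Pcdh19 window, around a median of 52.4% over all windows. Among members whose windows are not printed, Pcdh9, frequent in D1-like nuclei, had no GGGCGG. Pcdh19, rare in those nuclei, had GGGCGG and no TATAAA. These matches describe letters in a window and were not tested as binding sites. A link between motifs and levels was not tested. The Pcdh15 start of RefSeq lies inside the longer GENCODE span of the gene, and so does the Pcdh7 start. Pcdh9 has a further RefSeq entry, whose start also lies inside the span of its gene.

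Wells were kept with at least 20000 reads on genes and at least 1000 genes with a read, which left 736 nuclei, 92.4% of the Oprm1-Cre wells (median 169398 reads) and 99.2% of the Slc32a1-Cre wells (median 175337 reads). Each nucleus was classed from its own marker levels, with no member among the markers. D1-like nuclei numbered 492, of which 60.6% were Oprm1-Cre. D2-like nuclei made up 6.76% of the Oprm1-Cre plate (24 nuclei) and 38.8% of the Slc32a1-Cre plate, interneuron-like nuclei numbered 16 and 19, and 15 and 18 SPN-like nuclei were undecided between D1 and D2. The classes followed their defining genes: median Drd1a levels were 1708 and 1903 CPM (counts per 1000000 reads) in D1-like nuclei and 0 in D2-like nuclei of both plates. The plates also differ in sex-linked reads, which bears on the X-linked Pcdh11x and Pcdh19. Reads of Y-linked genes were found in 90.99% of Oprm1-Cre nuclei and in 0 Slc32a1-Cre nuclei, and Xist reads in 1.97% and 72.7%. Genotype, plate, animals and sex cannot be told apart. Over 4 oligodendrocyte precursor markers, the D1-like sums held 75.96 and 34.6 CPM in Oprm1-Cre and Slc32a1-Cre. Over 5 oligodendrocyte markers, the D1-like sums held 221.96 and 209.6 CPM and the D2-like sums 130.4 and 234.8 CPM. The part of these glial reads in the results was not tested. Below, paired values are given for Oprm1-Cre first and Slc32a1-Cre second unless stated.

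Pcdh9 was the most abundant member per kilobase of exon in the D1-like, D2-like and interneuron-like sums of both plates, and Pcdh8, Pcdh15 and Pcdh19 were the lowest 3 in every D1-like and D2-like sum. In CPM per kilobase, Pcdh9 stood at 37.3 and 35.6 in the D1-like sums and at 76.4 and 27.6 in the D2-like sums. Ranks 2 to 5 went to Pcdh7, Pcdh10, Pcdh11x and Pcdh17, in an order that changed with the plate. Among D1-like sums, Pcdh17 had rank 2 in Oprm1-Cre (21.2 CPM per kilobase) and rank 5 in Slc32a1-Cre (8.10). Pcdh11x had rank 5 in the Oprm1-Cre D1-like sum (1.68) and rank 2 in the Slc32a1-Cre D2-like sum (14.1). With 1 sum per plate, the order of these 4 genes has no spread beyond the difference of the plates.

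**Figure D1:**
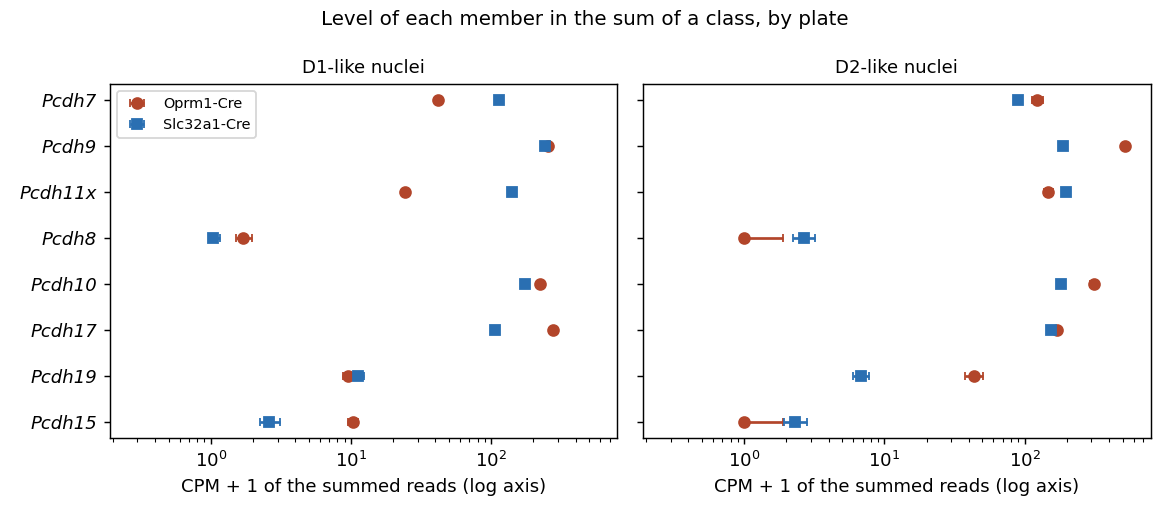
Level of the 8 members in the summed reads of D1-like (left) and D2-like (right) nuclei, as CPM + 1 on a log axis. Circles are the Oprm1-Cre plate, squares the Slc32a1-Cre plate, and bars are exact Poisson 95% intervals, which cover counting error only. In D1-like nuclei the plates lie far apart for Pcdh7, Pcdh11x and Pcdh17 and close together for Pcdh9.

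Between the genotypes, the D1-like nuclei differed in both directions within this family. Pcdh7 and Pcdh11x were lower in Oprm1-Cre, Pcdh17 and Pcdh15 were higher, and Pcdh9, Pcdh10 and Pcdh19 lay within the limit set for a difference. With 1 sample per genotype there is no test, and a gene counted as different when the log2 ratio of CPM + 5 (Oprm1-Cre over Slc32a1-Cre) passed 1 in either direction with at least 5 CPM in either plate. By that rule 2 of the 7 measured members were higher and 2 were lower in Oprm1-Cre, while 2.89% of the 10995 genes measured were higher and 1.88% were lower. The median log2 ratio was 0.06 over the members and -0.0012 over all measured genes. Pcdh8 did not reach the minimum in D1-like nuclei.

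Among the delta-1 genes followed here, Pcdh11x had the lowest ratio. Its summed D1-like level was 23.4 and 139.2 CPM, a log2 ratio of -2.35. Single nuclei ran from 0 over a median of 0 to 1142 CPM in Oprm1-Cre and from 0 over a median of 0 to 2012 CPM in Slc32a1-Cre. Most nuclei of both plates thus had no read, and the plates differed in the share of nuclei with one. After thinning every nucleus to 50000 reads, a read was found in 9.46% (6.38 to 13.4%) and 35.2% (28.5 to 42.4%) of D1-like nuclei, with exact 95% binomial intervals. Without thinning the shares were 11.1% and 38.7%. Pcdh7 followed the same direction at 40.7 and 111.8 CPM, a log2 ratio of -1.36, with a read in 13.9% (10.1 to 18.3%) and 32.1% (25.6 to 39.2%) of the thinned nuclei.

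For Pcdh9 the level and the share went apart. Its summed level was 252.7 and 241.6 CPM, a log2 ratio of 0.06, yet a read was found in 38.2% (32.6 to 43.98%) of the thinned Oprm1-Cre and 58.5% (51.3 to 65.6%) of the thinned Slc32a1-Cre nuclei. Among nuclei with a read, the median level was 443 CPM in Oprm1-Cre and 193.1 CPM in Slc32a1-Cre. Fewer Oprm1-Cre D1-like nuclei therefore held Pcdh9 reads, and those that did held more.

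Among the delta-2 genes, Pcdh17 had the highest ratio in D1-like nuclei. Its level was 275.3 and 105.3 CPM, a log2 ratio of 1.35. Single nuclei ran from 0 over a median of 144.3 to 3265 CPM in Oprm1-Cre and from 0 over a median of 0 to 1597 CPM in Slc32a1-Cre. A read was found in 72.97% (67.5 to 77.9%) and 38.9% (31.9 to 46.1%) of the thinned nuclei, so most Oprm1-Cre and fewer Slc32a1-Cre nuclei carried it. Pcdh10, which recruits the WAVE complex like Pcdh17, was at 220.2 and 171.98 CPM, a log2 ratio of 0.35. Its shares of 75.7% (70.4 to 80.5%) and 65.3% (58.1 to 71.98%) have overlapping intervals. Pcdh19, the gene of an X-linked epilepsy, was low at 8.51 and 10.2 CPM, a log2 ratio of -0.17, with a read in 4.05% and 6.22%. Pcdh8, also known as the activity-regulated protocadherin arcadlin, had reads in 3 Oprm1-Cre nuclei and 1 Slc32a1-Cre nucleus of this class without thinning.

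Pcdh15 passed the limit with 9.32 and 1.62 CPM in the D1-like sums, a log2 ratio of 1.11, but few nuclei carried it. Reads were in 13 Oprm1-Cre and 2 Slc32a1-Cre D1-like nuclei, and 5 nuclei held 89.3% of the reads of the Oprm1-Cre sum. Without the 5 nuclei with most reads in each plate the log2 ratio was 0.27, within the limit. Of the 4 oligodendrocyte precursor markers, Pdgfra was read in 1 of the 13 nuclei and in 0 of the other D1-like nuclei of that plate, and Cspg4 was at 0 in both. Vcan was at 44.97 CPM in the 13 nuclei and 70.1 CPM in the others, and Olig1 at 0 and 6.07 CPM.

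**Figure D2:**
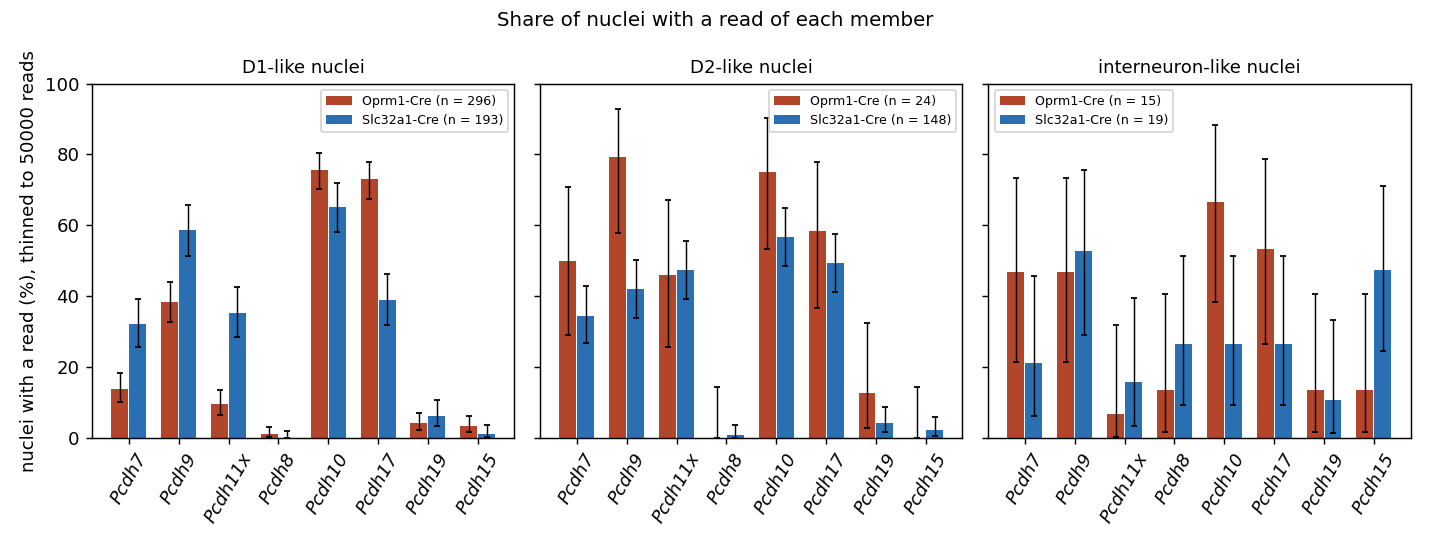
Share of nuclei with at least 1 read of each member after thinning to 50000 reads, in D1-like, D2-like and interneuron-like nuclei of the Oprm1-Cre (red) and Slc32a1-Cre (blue) plate, with exact 95% binomial intervals and the number of thinned nuclei in the key. Among D1-like nuclei the intervals are apart for Pcdh7, Pcdh9, Pcdh11x and Pcdh17, and Pcdh8 and Pcdh15 reach their highest shares in interneuron-like nuclei.

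The plates differed in how far D1-like nuclei leaned to the patches, so the members were set side by side within windows of a leaning score. The leaning score of a nucleus is the mean log2(CPM + 1) over 11 patch genes less the mean over 7 matrix genes, with no protocadherin among them. Its median over D1-like nuclei was 0.39 in Oprm1-Cre and -3.43 in Slc32a1-Cre. Within windows the plates still differ in score, with medians of -3.58 and -4.33 at -3 or less, -1.68 and -2.18 from -3 to -1, and 0.10 and 0.01 from -1 to 1. Pcdh17 had a larger share of nuclei with a read in Oprm1-Cre in each of 4 windows of the score. At a score of -3 or less, 78.6% (59.05 to 91.7%) of 28 Oprm1-Cre nuclei and 40.9% (31.8 to 50.4%) of the Slc32a1-Cre nuclei there had a Pcdh17 read, at 171.2 and 104.9 CPM. From -3 to -1 the shares were 70.6% (58.3 to 81.02%) of 68 and 51.9% (37.6 to 65.99%) of 52 nuclei, at 286.02 and 111.03 CPM, and these intervals overlap. From -1 to 1 they were 79.5% (68.8 to 87.8%) of 78 and 59.1% (36.4 to 79.3%) of 22 nuclei, at 280.3 and 126.5 CPM. These intervals overlap too. Above 1 the Slc32a1-Cre plate held 5 nuclei, too few for a comparison.

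Pcdh11x did not keep its difference in every window. At a score of -3 or less, 53.6% (33.9 to 72.5%) and 46.96% (37.6 to 56.5%) of the nuclei had a read, with summed levels of 105.7 and 165.1 CPM. From -3 to -1 the shares were 13.2% (6.23 to 23.6%) and 36.5% (23.6 to 51.04%), at 33.9 and 145.4 CPM. From -1 to 1 they were 3.85% of 78 and 9.09% of 22 nuclei, at 4.44 and 0.601 CPM. Pcdh7 likewise had overlapping shares at a score of -3 or less, 50% (30.6 to 69.4%) and 41.7% (32.6 to 51.3%). Its levels there were 166.6 and 131.7 CPM, the opposite order to that over all D1-like nuclei. In the next windows Pcdh7 kept the overall order, with 19.1% (10.6 to 30.5%) and 38.5% (25.3 to 52.98%) at 43.1 and 99.6 CPM, and then 7.69% (2.88 to 15.99%) and 18.2% (5.19 to 40.3%) at 14.7 and 53.5 CPM. Pcdh9, level between the plates over all D1-like nuclei, had the higher level in Oprm1-Cre in these 3 windows. It was read in 85.7% (67.3 to 95.97%) and 73.9% (64.9 to 81.7%) of nuclei at -3 or less, at 524 and 309.1 CPM. From -3 to -1 the shares were 57.4% (44.8 to 69.3%) and 57.7% (43.2 to 71.3%), at 403 and 196.7 CPM. From -1 to 1 they were 46.2% (34.8 to 57.8%) and 4.55% (0.115 to 22.8%), at 264.1 and 0.901 CPM.

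**Figure D3:**
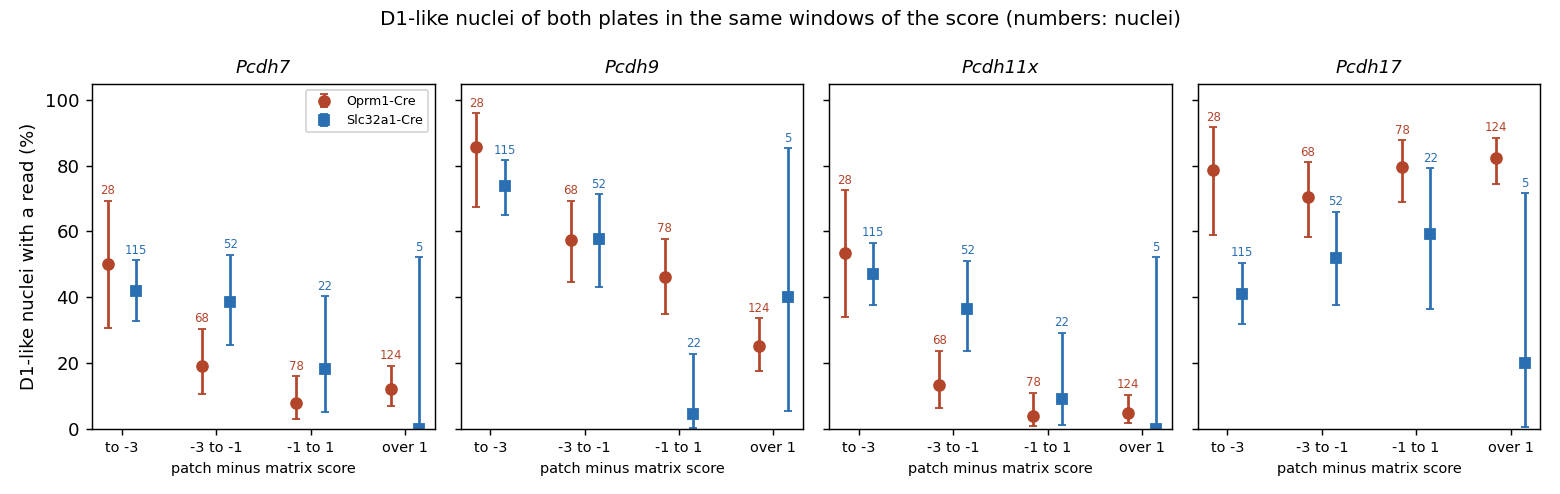
Share of D1-like nuclei with a read of Pcdh7, Pcdh9, Pcdh11x and Pcdh17 in 4 windows of the patch minus matrix score, with exact 95% binomial intervals and the number of nuclei above each. Pcdh17 is higher in the Oprm1-Cre plate (circles) than in the Slc32a1-Cre plate (squares) in each window. Its intervals overlap in both windows from -3 to 1, and the last window holds 5 Slc32a1-Cre nuclei. The Pcdh7 and Pcdh11x intervals overlap at scores of -3 or less.

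In D2-like nuclei 2 of the 6 measured members, Pcdh9 and Pcdh19, were higher in Oprm1-Cre and 0 were lower. The background was wide here, since 9.24% of the 10975 measured genes were higher and 14.3% were lower, and the Oprm1-Cre sum holds 24 nuclei. Pcdh9 was at 518 and 187.1 CPM, a log2 ratio of 1.45. Its median over nuclei was 509 and 0 CPM, and a read was found in 79.2% (57.8 to 92.9%) and 41.9% (33.8 to 50.3%) of the thinned nuclei. Pcdh19 was at 42.4 and 5.84 CPM, a log2 ratio of 2.13, but its Oprm1-Cre reads came from 3 nuclei. Leaving out the 5 nuclei with most reads therefore takes away all Oprm1-Cre reads of Pcdh19. The ratio of -0.030 then found was fixed in advance and is no check. Pcdh7 at 122.2 and 89.2 CPM (log2 ratio 0.43) and Pcdh10 at 311.03 and 180.7 CPM (0.77) lay within the limit. So did Pcdh11x at 147.1 and 197.2 CPM (-0.41) and Pcdh17 at 168.2 and 152.9 CPM (0.13). For Pcdh7, Pcdh9, Pcdh10, Pcdh11x and Pcdh17, 5 of the 24 Oprm1-Cre nuclei held from 50.7% (Pcdh9) to 79.2% (Pcdh11x) of the reads. Pcdh8 and Pcdh15 had 0 reads in the 24 Oprm1-Cre nuclei, which allows a share of nuclei with a read of up to 12.5%, and 1 and 5 Slc32a1-Cre D2-like nuclei had a read.

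D1-like and D2-like nuclei were then compared over both plates, with summed reads per plate and type (4 sums, plate as a block, 1 residual degree of freedom). By edgeR's quasi-likelihood test with Benjamini-Hochberg adjustment, 0 of the 8 members passed an adjusted p of 0.05 in either direction. Over all 13808 genes, 0.0435% were called higher and 0.0797% lower in D1-like nuclei. At an unadjusted p under 0.05 stood 1 of the 8 members, against 602 genes in all. That member was Pcdh11x. Its D1-like and D2-like sums stood at 23.4 and 147.1 CPM in Oprm1-Cre, and at 139.2 and 197.2 CPM in Slc32a1-Cre. Its log2 difference was -1.62 ± 0.53 (SE; edgeR adjusted p = 1). DESeq2 called this 1 member, at -1.66 with an adjusted p of 0.0240, and called 0.55% of genes lower. The p-values measure the spread between these sums, which may be technical.

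Of the 4 other members above 20 CPM in each of the 4 sums, 3 did not keep one direction across the plates. Values follow as D1-like and D2-like. Pcdh7 stood at 40.7 and 122.2 CPM in Oprm1-Cre and 111.8 and 89.2 CPM in Slc32a1-Cre, lower in D1-like nuclei of the first plate only, with a fitted log2 difference of -0.68 ± 0.50 (SE). Pcdh9 went the same way, at 252.7 and 518 CPM in Oprm1-Cre and 241.6 and 187.1 CPM in Slc32a1-Cre (-0.39 ± 0.34). Pcdh17 went the opposite way, at 275.3 and 168.2 CPM in Oprm1-Cre and 105.3 and 152.9 CPM in Slc32a1-Cre (0.03 ± 0.33). Pcdh10 had the lower D1-like sum in both plates, at 220.2 and 311.03 CPM in Oprm1-Cre and 171.98 and 180.7 CPM in Slc32a1-Cre (-0.34 ± 0.22). In Slc32a1-Cre the counting intervals of these sums overlap (167.7 to 176.4 and 175.8 to 185.6 CPM). The thinned share of nuclei with a Pcdh10 read there was higher in D1-like nuclei, 65.3% and 56.8%. In Oprm1-Cre, 5 nuclei held 72.3% of the D2-like reads. None of these 4 passed the test. The median log2 difference was -0.53 over the 8 members and 0.10 over all genes.

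A gradient seen in both plates ran along the leaning score in D1-like nuclei. Nuclei of a plate were ordered by score and cut into 4 groups of like size, and the lowest group (matrix-leaning) was set against the highest (patch-leaning), 75 against 75 nuclei in Oprm1-Cre and 49 against 49 in Slc32a1-Cre. Values follow as matrix-leaning and patch-leaning. Pcdh9 was at 394 and 129.5 CPM in Oprm1-Cre and at 339.2 and 113.2 CPM in Slc32a1-Cre. The shares of nuclei with a read were 66.7% and 25.3% in the first plate and 79.6% and 34.7% in the second. Over the 4 groups in order, the Pcdh9 level was 394, 350.4, 141.4 and 129.5 CPM in Oprm1-Cre and 339.2, 294.3, 194.9 and 113.2 CPM in Slc32a1-Cre, lower at each step. Median genes with a read per nucleus also went from 4049 to 3516 and from 3827 to 3311, and their part was not tested. At 50000 reads per nucleus the Pcdh9 shares were 61.3, 45.9, 23.6 and 21.3% in Oprm1-Cre and 75.5, 77.1, 45.8 and 35.4% in Slc32a1-Cre, where the first pair of groups did not differ in that direction.

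Pcdh11x was at 64.6 and 5.01 CPM in Oprm1-Cre and at 174.7 and 51.6 CPM in Slc32a1-Cre. Its shares with a read were 28% and 4% in the first plate and 51.02% and 22.4% in the second. Pcdh7 had the same direction with a smaller ratio, at 84.6 and 37.9 CPM and at 107.3 and 74.5 CPM. All 3 delta-1 genes followed here were thus lower in the patch-leaning sum of each plate. Among the delta-2 genes, Pcdh19 also had the lower value in patch-leaning nuclei, 23.3 and 8.40 CPM and 17.2 and 1.197 CPM, on reads in 12% and 18.4% of the matrix-leaning nuclei. Pcdh17 had the higher value in patch-leaning nuclei, 240.3 and 308.5 CPM and 68.7 and 116.5 CPM. Pcdh10 did too, at 172.5 and 251.9 CPM and 189.5 and 221.9 CPM. Its shares with a read were 70.7% and 82.7% in Oprm1-Cre, but 75.5% and 71.4% in Slc32a1-Cre, the opposite order. Over the 4 Slc32a1-Cre groups its level was 189.5, 98.01, 183.6 and 221.9 CPM, with no steady course.

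By edgeR's quasi-likelihood test on the 4 sums, 0 of the 7 members tested passed an adjusted p of 0.05, and of all 12646 genes tested 0% were called in either direction. At an unadjusted p under 0.05 stood 3 of the 7 members and 611 genes in all. Pcdh9 had a log2 difference of -1.56 ± 0.21 (SE), with an unadjusted p of 0.000271 and an edgeR adjusted p of 0.572. Pcdh11x had -2.66 ± 0.56 (edgeR adjusted p = 0.971), and Pcdh19 had -2.57 ± 1.05 (edgeR adjusted p = 0.971). DESeq2 called 2 members, Pcdh9 (adjusted p = 1.42e-06) and Pcdh11x (adjusted p = 0.000269), in the direction in which it called 0.452% of genes. Pcdh7 at -0.81 ± 0.36, Pcdh10 at 0.42 ± 0.23 and Pcdh17 at 0.59 ± 0.24 passed neither test. The median log2 difference was -0.81 over the 7 members and -0.01 over all genes, and Pcdh8 was not tested because of its low counts. Pcdh17 turned to -1.96 with 1 set of score limits for both plates, which leaves few patch-leaning Slc32a1-Cre nuclei, and to -0.24 with the patch genes alone. With the score cut at its median within a plate, the Pcdh17 difference was 0.012.

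**Figure D4:**
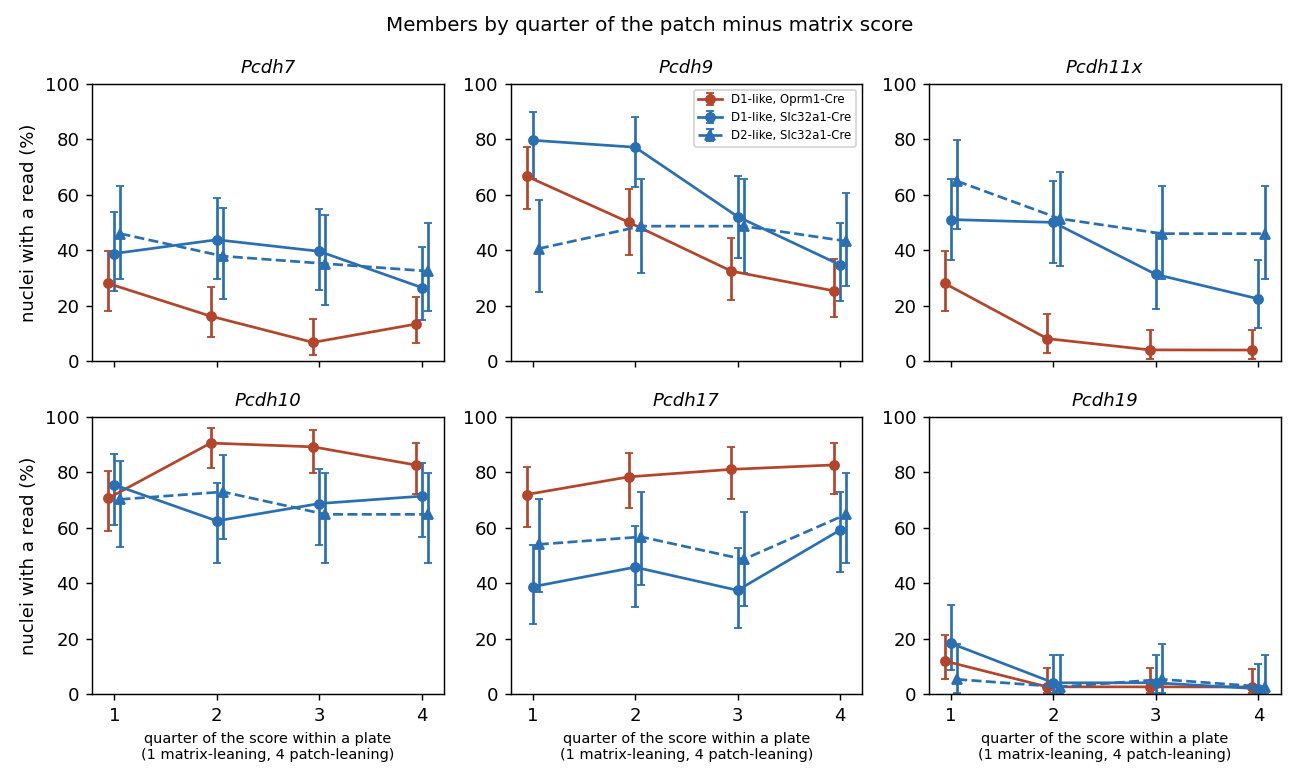
Share of nuclei with a read of 6 members in 4 groups of like size along the patch minus matrix score within a plate, for D1-like nuclei of both plates (solid) and D2-like nuclei of the Slc32a1-Cre plate (dashed), with exact 95% binomial intervals. Pcdh9 goes from 79.6% to 34.7% over the D1-like groups of the Slc32a1-Cre plate, while the D2-like line of Pcdh9 stays between 40.5% and 48.6%.

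D2-like nuclei were split this way in the Slc32a1-Cre plate, with 37 nuclei a group and no test. Pcdh9 differed little between the end groups there, with 154.1 and 146.5 CPM and reads in 40.5% and 43.2% of matrix-leaning and patch-leaning nuclei. Over the 4 groups in order its level was 154.1, 163.3, 299.8 and 146.5 CPM. Pcdh11x was at 282.1 and 147.2 CPM, with reads in 64.9% and 45.9%. Pcdh7 was at 111.9 and 55.2 CPM, and Pcdh17 at 84.9 and 202.3 CPM. The directions of Pcdh7, Pcdh11x and Pcdh17 were those of the D1-like nuclei, and whether the Pcdh9 values differ between both types was not tested.

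SPN-like nuclei commonly held reads of more than 1 member. At 50000 reads, the median was 2 of the 8 members per D1-like nucleus in both plates, and 9 Oprm1-Cre and 6 Slc32a1-Cre D1-like nuclei had none. At least 4 members were found in 8.11% of the Oprm1-Cre and 17.6% of the Slc32a1-Cre D1-like nuclei. Across nuclei the levels of the members were only weakly related, over 3 sets of nuclei that each share a plate: D1-like nuclei of either plate and Slc32a1-Cre D2-like nuclei. Pcdh10 and Pcdh17 had a mean Spearman coefficient of -0.13 (range -0.16 to -0.11), and Pcdh7 and Pcdh9 one of 0.15 (0.13 to 0.18). The highest mean, 0.18 for Pcdh8 and Pcdh19, ranged from -0.02 to 0.41 over the sets. Pcdh8 was read in 3 Oprm1-Cre D1-like nuclei and in 1 nucleus of each other set. The 0.41, of the D2-like set, thus rests on 1 nucleus with a Pcdh8 read. The gene most like each member over the same sets was Ptchd4 for Pcdh9 (0.21), Wfs1 for Pcdh10 (0.22) and Rxrg for Pcdh17 (0.21). For Pcdh11x it was Abi3bp (0.18), for Pcdh7 Gpr155 (0.17) and for Pcdh19 Ptchd4 (0.20). In counts this sparse such values are descriptions and no findings.

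Interneuron-like nuclei held Pcdh8 and Pcdh15, which were rare in the D1-like and D2-like sums. Both also had reads in SPN-like nuclei undecided between D1 and D2, Pcdh8 at 117.9 and 92.7 CPM and Pcdh15 at 82.8 and 1.37 CPM. Pcdh15 was at 132.4 CPM in the 19 Slc32a1-Cre interneuron-like nuclei, with 1.62 and 1.32 CPM in the D1-like and D2-like sums of that plate. Single nuclei ran from 0 over a median of 11.4 to 1534 CPM, and 9 of 19 thinned nuclei had a read (47.4%, 24.4 to 71.1%). Pcdh8 was at 61.4 CPM, with a read in 5 of 19 nuclei (26.3%, 9.15 to 51.2%), against 1 D1-like and 1 D2-like nucleus of that plate. In Oprm1-Cre, 2 of 16 interneuron-like nuclei had Pcdh15 reads (6.44 CPM) and 2 of 16 had Pcdh8 reads (43.1 CPM). Pcdh9 stayed frequent, at 187.998 and 292.9 CPM. These are values of 1 sample per genotype, with no test.

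Sorting the 35 nuclei by their highest marker pair, a step chosen after values were seen, put most of both genes' reads in one kind. The 8 nuclei led by Pthlh and Pvalb, all Slc32a1-Cre, had Pcdh15 reads in 6 and Pcdh8 reads in 5. Their Pcdh15 levels were 475, 1534, 279.99, 376.7, 0, 96.05, 75.2 and 0 CPM. Their Pcdh8 levels, in the same order of nuclei, were 274.3, 0, 250.8, 464, 206.7, 0, 0 and 87.8 CPM. Each of the 8 nuclei thus held reads of Pcdh15, Pcdh8 or both, and 3 held both. The nucleus at 1534 CPM of Pcdh15 also held 844 CPM of Mbp, a gene of oligodendrocyte myelin. Without it the Pcdh15 sum of this kind went from 300.98 to 150.1 CPM, with reads in 5 of 7 nuclei, and the Pcdh8 sum from 157.3 to 176.6 CPM.

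The 9 nuclei led by Sst and Npy had reads of Pcdh8 in 0 and of Pcdh15 in 4, the latter at up to 131.2 CPM. The 16 nuclei led by Th and Trh, 13 of them Oprm1-Cre, had Pcdh10 reads in 11 and Pcdh17 reads in 11, at 142.04 and 212.1 CPM. Pcdh11x, frequent in Slc32a1-Cre SPN-like nuclei, was read in 0 of the 13 Oprm1-Cre and 2 of the 3 Slc32a1-Cre nuclei of this kind, at up to 15.2 CPM. Of the Th and Trh nuclei, 0 of the 13 Oprm1-Cre and 2 of the 3 Slc32a1-Cre ones had Pcdh15 reads, at up to 100.7 CPM. The 2 nuclei led by the cholinergic genes Chat and Slc5a7 held no Pcdh9 and, in their sum, 12.6 CPM of Pcdh17.

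**Figure D5:**
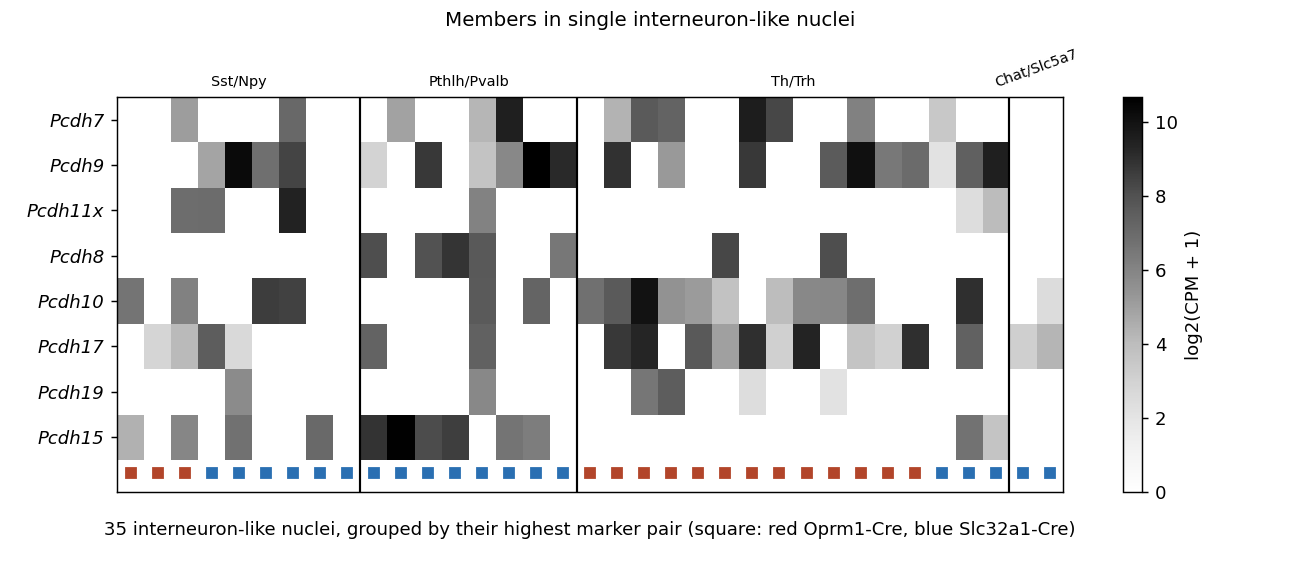
Levels of the 8 members as log2(CPM + 1) in each of the 35 interneuron-like nuclei (columns), grouped by the marker pair with the highest mean level; squares give the plate. The Pthlh/Pvalb group holds the darkest run of Pcdh15 and 5 of the 7 nuclei with Pcdh8 reads.

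The 4 nuclei classed as glia give the members' levels outside neurons. The single nucleus classed as an oligodendrocyte precursor held 1250 CPM of Pcdh15 and 1235 CPM of Pcdh9. Of the 3 nuclei classed as oligodendrocytes, 2 held Pcdh9, at 1276 and 2588 CPM, and 1 held 1911 CPM of Pcdh8. Pcdh7, Pcdh10, Pcdh11x, Pcdh15 and Pcdh19 were at 0 in all 3, and Pcdh17 reached 10.05 CPM in 1 of them.

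Genes that act with or resemble the members were set beside the same background, in which 2.89% of genes were higher and 1.88% lower in Oprm1-Cre D1-like sums. In D1-like nuclei 0 of the 8 measured genes of the WAVE complex passed the limit in either direction, with Nckap1 at 577 and 759.6 CPM, Cyfip2 at 556 and 691 CPM and Abi2 at 507 and 505 CPM. Of the 8 other cytoplasmic partners, among them Ppp1ca (a catalytic subunit of protein phosphatase 1) at 295.4 and 372.98 CPM and Ctnnb1 (beta-catenin) at 210.8 and 238.9 CPM, 0 passed it. Of 11 measured classical and related cadherins, Cdh18 was higher in Oprm1-Cre (74.8 and 25.9 CPM) and Cdh4 (13.5 and 36.8 CPM) and Cdh7 (19.03 and 87.1 CPM) were lower. The most abundant of this list, Cdh8 (314.5 and 337.98 CPM), Cdh9 (201.6 and 317.1 CPM) and Cdh13 (213.6 and 206.5 CPM), lay within it. Of 46 measured clustered protocadherins, 3 were higher and 2 lower, with a median log2 ratio of -0.14. In the alpha and gamma clusters, shared last exons make the split of reads between genes uncertain. Pcdhb3 (11.5 and 0.569 CPM) and Pcdha8 (14.2 and 3.22 CPM) were among the higher and Pcdhga6 (11.1 and 42.2 CPM) among the lower, and the remaining 2, named after their values were seen, were Pcdhgc4 (higher) and Pcdhb8 (lower). Of 4 other non-clustered protocadherins, 2 reached the minimum. Pcdh20 was lower in Oprm1-Cre (3.33 and 21.1 CPM), and Pcdh1 lay within the limit (48.3 and 30.7 CPM, log2 ratio 0.58). Of 10 genes linked to the Pcdh15 tip link, 2 were measured and 0 passed the limit. In D2-like nuclei, where 9.24% of genes were higher and 14.3% lower, 4 of 40 measured clustered protocadherins were higher and 12 lower. There 2 of the 8 cytoplasmic partners were higher and 1 lower, 2 of 11 cadherins were higher and 2 lower, and 0 of 9 WAVE complex genes passed the limit. In the test of D1-like against D2-like nuclei, edgeR called 0 of the 92 genes tested over these lists, 4 stood at an unadjusted p under 0.05 (602 of 13808 over all genes) and DESeq2 called 0 (1.201% over all genes). In the test along the leaning score edgeR called 0 of 88 genes, 9 stood at an unadjusted p under 0.05 (611 of 12646 over all genes) and DESeq2 called 3 (0.944% over all genes). These were Cdh7 and Cdh12, lower in patch-leaning nuclei, and Pcdha12, higher.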

How the data were processed

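The authors deposited whole-number read counts as 1 table per genotype and 1 joint table, and all 18878976 values agree between them. The submitters' processing notes name mm10, SAMtools and Seurat. No source used here gives the aligner, the counter or the use of strand. Per the labels' protocols, RNA came from a column kit and libraries from a stranded total RNA kit, and how single nuclei were amplified is not stated there. Wells were mapped by column names, since the Slc32a1-Cre labels name their table with the plate number of the Oprm1-Cre table. Counts carry no molecular identifiers, so the 95% intervals cover counting error only.

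The members and gene lists were chosen with earlier results of these data known. The 92 spike-ins and eGFP stayed out of totals. Kept nuclei numbered 355 in Oprm1-Cre and 381 in Slc32a1-Cre, with 298 and 194 D1-like and 24 and 148 D2-like. Nuclei were classed by mean log2(CPM + 1) of marker lists: interneuron-like over 1.5, other classes where their score exceeded the SPN score, SPN-like at 3 or more, and D1-like or D2-like where the D1 and D2 scores differed by more than 2. No doublet caller was run. Sums per plate and class were tested with edgeR 4.0.16 (TMM, filterByExpr, plate as a block) and, as an alternative, DESeq2 1.42.0, in R 4.3.3, with code tested on simulated data. Thinning to 50000 reads left out 5 nuclei. Outside the members, up to 3 genes of highest level and up to 3 past the limit were named per list, and the gene most correlated with each member. The closing section gives the alternatives.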

Additional observations from a re-analysis of the deposited data

Results flagged for a closer look

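For 4 members the D1-like and D2-like nuclei of the plates moved in opposite directions, with counting intervals apart in both plates. The log2 ratio of D1-like over D2-like (CPM + 5) was -1.48 in Oprm1-Cre and 0.31 in Slc32a1-Cre for Pcdh7, -1.02 and 0.36 for Pcdh9, 0.69 and -0.52 for Pcdh17, and -1.81 and 0.49 for Pcdh19. The difference between the plates was not tested, and the Oprm1-Cre plate holds 24 D2-like nuclei, 3 of them with Pcdh19 reads.

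SPN-like nuclei undecided between D1 and D2 entered no comparison. Only levels above the counting intervals of both the D1-like and D2-like sums of their plate were looked for. Such levels were found for 7 members, in both plates for Pcdh8 and Pcdh17. In the 15 Oprm1-Cre nuclei these were Pcdh8 at 117.9 CPM (reads in 3 nuclei), Pcdh15 at 82.8 CPM (3), Pcdh17 at 433.8 CPM (13) and Pcdh19 at 61.5 CPM (4). In the 18 Slc32a1-Cre nuclei they were Pcdh7 at 213.01 CPM (8), Pcdh8 at 92.7 CPM (2), Pcdh9 at 529.6 CPM (8), Pcdh10 at 287.5 CPM (12) and Pcdh17 at 308.7 CPM (11). The D1-like and D2-like sums of Pcdh8 reached at most 1.66 CPM, and those of Pcdh15 at most 9.32 CPM.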

How the results depend on the processing

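Between the plates, the 4 members beyond the limit in D1-like nuclei and the 2 in D2-like nuclei changed by no more than 1.5 times in number under 14 alternatives (pseudocounts, minimum levels, scaling, read filter, nuclei weighted alike, possible doublets or the 5 nuclei with most reads left out, score limits, clustering). Pcdh15 in D1-like nuclei no longer passed it at a pseudocount of 20 (0.44), by mean CPM over nuclei (0.74), at a minimum of 20 CPM or without the 5 nuclei (0.27). With the 5 nuclei with most reads left out, Pcdh19 in D2-like nuclei turned from 2.13 to -0.030. That turn was fixed in advance, since all of its Oprm1-Cre reads lay in 3 nuclei. Another ratio, within the limit at first, passed it under 1 alternative, so a like number can hide a change of members. The clusters made without the members, and the alternatives on interneuron-like nuclei, were chosen after seeing the data.

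The D1-like against D2-like test called 0.123% of genes (17 genes). It called 0.0579% (8) with no replicate block (unpaired sums), 1.201% by DESeq2 and 0.169% (29) with no filter on low counts. The leaning test called 0 genes, 0.944% by DESeq2 and 0.219% (27) with score limits set over both plates, including Pcdh7, Pcdh9 and Pcdh11x. Directions turned for Pcdh17 in D1-like against D2-like nuclei by DESeq2 (-0.0030) and in the leaning comparison with limits over both plates (-1.96) or the patch genes alone (-0.24), and for Pcdh8 at a score limit of 1 (2.87). Within a single plate, D1-like over D2-like ranged from -1.48 to 0.31 for Pcdh7, -1.02 to 0.36 for Pcdh9, -0.52 to 0.69 for Pcdh17, -1.81 to 0.49 for Pcdh19 and -0.40 to 0.19 for Pcdh8. The cause was not tested.

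In Slc32a1-Cre D2-like nuclei 1 member had a read in at least 50% of nuclei, and 3 did with no thinning or thinning to 100000 reads. In the 19 interneuron-like Slc32a1-Cre nuclei, Pcdh15 moved from 132.4 CPM to 162.9 with an interneuron score over 2, 77.96 without nuclei high in glial or vessel markers and 70.02 without the nucleus with most reads, and Pcdh8 from 61.4 CPM to 77.8, 76.5 and 43.9. Depth limits the low members: Pcdh8, Pcdh15 and Pcdh19 rest on few nuclei each.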
